A study of Mus musculus with 23 samples.

Results

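The genes described here are 10 members of the interleukin-1 (IL-1) system that neutrophils use: the cytokines *Il1a*, *Il1b* and *Il18*, the receptor antagonist *Il1rn*, the decoy receptor *Il1r2*, the accessory receptor chains *Il1rap* and *Il18rap*, the inflammasome sensor *Nlrp3*, and the inflammatory caspases *Casp1* and *Casp4*. They were chosen by name, with earlier results of these data known, and matched by gene identifier or, in whole lung, by symbol. All 10 were found among the 21878 genes of the sorted neutrophil tables and the 55335 genes of the whole-lung table. Each was followed across 3 bulk RNA-Seq experiments in mice. The labels give neither strain nor age, and the study's methods mention C57BL/6J mice, of both sexes, without tying strain or age to a library. In the first experiment, neutrophils (CD45+CD11b+Ly6G+) were sorted from lung, peripheral blood (PB) and bone marrow (BM) of WT mice at steady state, with 3 libraries per tissue. In the second, 2 libraries were made per group from lung neutrophils and from PB neutrophils of WT mice and of *Piezo1*-cKO mice, sorted in the same way. In the *Piezo1*-cKO mice, Vav1-iCre, which is active in hematopoietic cells, recombines a floxed *Piezo1*, which encodes a mechanically gated cation channel, and the labels call the controls WT without naming their alleles. In the third, whole lungs were compared between mice depleted of neutrophils (PMN deletion, with an anti-Ly6G antibody) and controls given an isotype antibody, with 3 libraries per group. The labels of these lungs say WT and PMN deletion, and the antibodies are known from the methods.

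IL-1α and IL-1β signal through the same receptor, of which IL1RAP is the second chain. The antagonist IL1RN occupies that receptor without signaling, and IL1R2 binds IL-1 but passes no signal on. IL-1β and IL-18 are made as precursors that CASP1 cleaves once an inflammasome, such as the one built on NLRP3, has assembled, whereas CASP4 (caspase-11 in mice) responds to cytosolic lipopolysaccharide. IL-1α is active as a precursor and is released by damaged cells. In neutrophils, *Il1b* and *Nlrp3* RNA are induced by NF-κB signaling, so that the RNA of the system is commonly read as a sign of priming, although the amount of secreted cytokine was not measured here.

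Levels are given as FPKM, a count of fragments scaled by transcript length and by the depth of the library, which allows levels of different genes to be compared. Differences are log2 fold changes on the log2(FPKM + 1) scale, which understates the change of genes near 0. Each library of the tissue comparison held 16502153 to 19330794 recovered reads, and each of the Piezo1 experiment 9621087 to 15034740, and the depth of the whole-lung libraries is unknown. A gene was called when the adjusted p of limma-trend was below 0.05 and the absolute log2 fold change was above 1 (above 0.5 in whole lung). The labels do not say that the libraries of a group came from separate animals, so p-values measure only the spread between these libraries. In PB, library 3 stood apart from the other two (chi-square per degree of freedom 24.6 and 41.0, against 1.90 to 4.77 for the other pairs of replicates), and the counts of members called were the same without it. Neutrophil markers were abundant in every sorted library. Of 12 macrophage and monocyte markers, 9 averaged below 1 FPKM in both lung and PB neutrophils. Among these were *C1qa*, *C1qb*, *C1qc*, *Marco*, *Mrc1* and *Mertk*. The others were *Csf1r*, *Adgre1* and *Ly6c2*, and *Csf1r* led the list at a mean of 97.4 FPKM in lung and 133 FPKM in PB. The summed level of the list was 188 to 193 FPKM in lung and 254 to 302 FPKM in PB. In the Piezo1 experiment the sums were 213 to 215 FPKM in WT and 222 to 228 FPKM in *Piezo1*-cKO lung. In PB they were 351 to 353 FPKM in WT and 330 FPKM in *Piezo1*-cKO libraries. Summed epithelial markers in the tissue comparison were 5.23 to 5.99 FPKM in lung and 13.8 to 23.9 FPKM in PB. In PB this was *Ager* (mean 20.1 FPKM), and *Epcam*, *Scgb1a1*, *Sftpa1* and *Sftpc* were at 0 in every library. In lung *Ager* averaged 3.73 FPKM and no gene of the list was at 0 in every library. In WT mice of the Piezo1 experiment the order was reversed, with 6.05 to 6.74 FPKM in lung, led by *Scgb1a1*, and 0.764 to 1.27 FPKM in PB. Endothelial markers reached at most 0.550 FPKM in lung of the tissue comparison. In the Piezo1 experiment, *Piezo1* itself was at 0.0301 to 0.0758 FPKM in all 8 libraries (3 to 10 reads), below the filter on low values, so it does not check the genotype labels.

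*Il1a* and *Il1b* are neighbors on chromosome 2 and are read from the minus strand (GRCm38: *Il1a* 2, 129299610 to 129309972; *Il1b* 2, 129364570 to 129371139). *Il1rn* lies elsewhere on chromosome 2 (24336853 to 24351494, plus strand), and *Casp1* and *Casp4* are neighbors on chromosome 9 (5298517 to 5307265 and 5308828 to 5336783, plus strand). *Nlrp3* lies on chromosome 11 (59541568 to 59566956, plus strand). The promoters of 4 members are shown as examples of different patterns: *Il1a* was near 0 outside lung, *Il1b* was abundant in PB and lung, *Nlrp3* rose stepwise from BM to PB to lung, and *Casp4* lies beside *Casp1* and held the NF-κB consensus. Each sequence is the 250 bases before the RefSeq start (GRCm38.p6), written 5′ to 3′ on the strand of the gene, with capitals marking matches to a searched motif. The windows are chr2:129309973-129310222 (minus strand) for *Il1a*, chr2:129371140-129371389 (minus strand) for *Il1b*, chr11:59541319-59541568 (plus strand) for *Nlrp3* and chr9:5308599-5308848 (plus strand) for *Casp4*.

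Il1a: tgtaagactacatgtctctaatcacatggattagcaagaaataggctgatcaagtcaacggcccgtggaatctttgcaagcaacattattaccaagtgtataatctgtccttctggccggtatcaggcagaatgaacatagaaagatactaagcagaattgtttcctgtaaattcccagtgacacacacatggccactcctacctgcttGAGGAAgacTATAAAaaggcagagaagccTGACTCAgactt

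Il1b: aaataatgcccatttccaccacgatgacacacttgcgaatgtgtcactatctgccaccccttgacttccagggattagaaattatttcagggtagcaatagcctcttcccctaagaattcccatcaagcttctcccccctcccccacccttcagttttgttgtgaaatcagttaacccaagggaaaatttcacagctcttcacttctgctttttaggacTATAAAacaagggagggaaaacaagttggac

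Nlrp3: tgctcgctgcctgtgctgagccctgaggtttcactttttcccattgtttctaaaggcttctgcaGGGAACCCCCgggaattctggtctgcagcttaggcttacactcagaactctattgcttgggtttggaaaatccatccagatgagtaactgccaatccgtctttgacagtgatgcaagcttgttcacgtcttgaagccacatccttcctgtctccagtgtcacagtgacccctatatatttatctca

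Casp4: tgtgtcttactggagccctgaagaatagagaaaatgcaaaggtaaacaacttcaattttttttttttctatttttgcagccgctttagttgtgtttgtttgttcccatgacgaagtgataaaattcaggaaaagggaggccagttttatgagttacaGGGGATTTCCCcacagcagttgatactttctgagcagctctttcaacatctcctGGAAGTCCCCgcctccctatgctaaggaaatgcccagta

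4 motifs were searched on both strands, the AP-1 motif TGANTCA, the TATA box TATAAA, the PU.1 core GAGGAA and the NF-κB consensus, and in the windows of the members no match overlapped one of another motif. *Il1a* had a PU.1 core at bases -41 to -36 from the start, a TATA box at -32 to -27 and an AP-1 motif at -12 to -6. *Il1b* had a TATA box at -31 to -26 and none of the other motifs. In *Casp4* the NF-κB consensus matched in overlapping frames between -93 and -83 and again at -39 to -30 on the opposite strand, and in *Nlrp3* it matched at -186 to -177. Across the 14 windows of the 10 members, the NF-κB consensus was found in 2 members, AP-1 in 2 (*Il1a* and *Il1rn*), the TATA box in 3 and the PU.1 core in 4, and *Il1r2* and *Il1rap* held none of them. Of the 32851 promoter windows in the table, 7.25% held the NF-κB consensus, 6.75% AP-1, 12.4% the TATA box and 23.3% the PU.1 core. These shares are per window, whereas a member was counted for a match in any of its windows, so the units differ. A match describes the sequence and was not tested as a binding site.

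In lung neutrophils of WT mice, 5 of the 10 members were called higher than in PB neutrophils and none lower. These were *Il1a*, *Il1r2*, *Il1rn*, *Nlrp3* and *Il1b*. Of all 7577 genes tested, 7.75% were called higher and 19.5% lower. The median log2 fold change was 1.13 over the members and -0.54 over all genes. Since the median gene was lower in lung, FPKM were also rescaled so that the median ratio between libraries was 1. Then 7 members, with *Il18* and *Casp4* added, were called higher and none lower. On that scale 932 of the 7577 genes were called higher and 448 lower. In bulk libraries a larger share of expressing cells and more RNA per cell cannot be told apart. Lung tissue was digested with enzymes before sorting whereas PB and BM were not, and digestion and tissue cannot be told apart either. The methods describe enrichment by negative selection before sorting for PB and lung but not for BM. In comparisons against BM this step cannot be told apart from tissue.

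**Figure D1:**
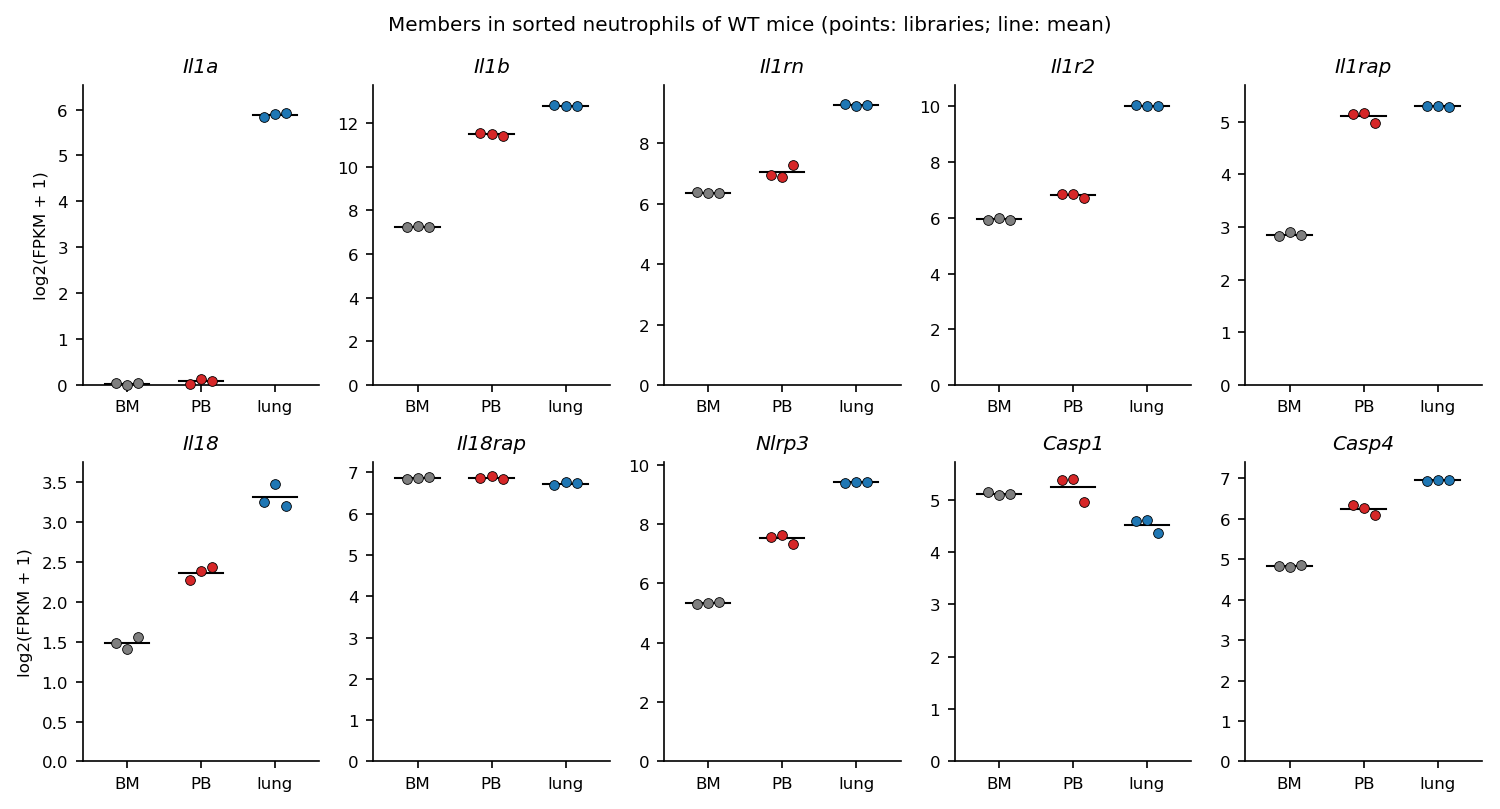
Level of each of the 10 members in neutrophils of BM, PB and lung of WT mice, as log2(FPKM + 1) on the y axis; each point is 1 library (n = 3 per tissue) and each line the mean. *Il1a* lies near 0 in BM and PB and above 55 FPKM in lung, *Il1b* and *Nlrp3* step up from BM to PB to lung, and *Il18rap* stays nearly level.

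Among the cytokines, *Il1a* separated the tissues most sharply. It was listed at 0.0368, 0 and 0.0256 FPKM in the 3 BM libraries (5 reads in all), at 0.0133, 0.0894 and 0.0633 FPKM in PB (13 reads) and at 55.9, 59.1 and 59.9 FPKM in lung (12586 reads). All lung libraries thus lay far above all PB and BM libraries, and PB and BM overlapped at a few reads each. The log2 fold change of lung over PB was 5.81 ± 0.07 (SE, adjusted p = 6.39e-10, limma-trend). Scaled to library depth, the lung read total was 1043 times the PB total (95% interval 609 to 1959, for counting error only) and 2818 times the BM total (1207 to 8682).

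*Il1b*, which encodes the precursor of IL-1β, was at 151, 153 and 149 FPKM in BM, at 2946, 2927 and 2696 FPKM in PB and at 7192, 7070 and 7031 FPKM in lung. The 3 tissues did not overlap, and the larger step was from BM to PB (log2 fold change 4.23 ± 0.06, adjusted p = 7.55e-09, limma-trend), followed by 1.31 ± 0.06 from PB to lung (adjusted p = 2.91e-07). In lung neutrophils *Il1b* was the fifth most abundant gene in all 3 libraries and took 1.86% to 1.90% of the reads, compared with 0.714% to 0.780% in PB and 0.0395% to 0.0405% in BM. *Il18*, the other substrate of caspase-1, stayed low, at 1.79, 1.65 and 1.94 FPKM in BM, 3.82, 4.24 and 4.40 FPKM in PB and 8.50, 10.1 and 8.19 FPKM in lung. It rose in the same order without overlap, but its lung-over-PB value of 0.95 ± 0.09 (adjusted p = 2.87e-05) was under the size threshold and reached 1.49 after rescaling.

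Both inhibitors of IL-1 rose in lung together with the cytokines. *Il1rn*, the receptor antagonist, was at 83.3, 80.6 and 80.9 FPKM in BM, 123, 118 and 155 FPKM in PB and 633, 607 and 615 FPKM in lung. Lung neutrophils thus held several times the level of PB, with a log2 fold change of 2.23 ± 0.10 (adjusted p = 3.18e-07), and BM and PB differed by 0.67 ± 0.10 (adjusted p = 0.000400), under the size threshold. *Il1r2*, the decoy receptor, was at 60.2, 63.4 and 59.3 FPKM in BM, 113, 115 and 104 FPKM in PB and 1059, 1026 and 1046 FPKM in lung. Its lung-over-PB value of 3.22 ± 0.06 (adjusted p = 2.20e-09) was the second largest among the members, after *Il1a*. Set against *Il1b* in the same library, *Il1rn* was at a ratio of 0.540 ± 0.0121 (SD, n = 3) in BM, 0.0465 ± 0.00959 in PB and 0.0871 ± 0.00111 in lung. For *Il1r2* the ratio was 0.403 ± 0.00953 in BM, 0.0388 ± 0.000384 in PB and 0.147 ± 0.00184 in lung. Per unit of *Il1b*, both inhibitors were therefore lowest in PB and highest in BM.

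The 2 accessory chains followed other patterns. *Il1rap*, which completes the IL-1 receptor, was at 6.08, 6.51 and 6.16 FPKM in BM, 34.5, 35.1 and 30.6 FPKM in PB and 38.5, 38.4 and 37.8 FPKM in lung. Its increase lay between BM and PB (2.24 ± 0.07, adjusted p = 6.07e-08), and lung and PB differed by 0.19 ± 0.06 (adjusted p = 0.0212), or by 0.82 after rescaling, neither past the size threshold. *Il18rap*, the signaling chain of the IL-18 receptor, was the most even member, at 113, 116 and 117 FPKM in BM, 116, 119 and 113 FPKM in PB and 102, 107 and 106 FPKM in lung. The lung-over-PB value was -0.14 ± 0.05 (adjusted p = 0.0282) and turned to 0.50 after rescaling, so its direction depends on the scaling.

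The sensor *Nlrp3* was at 38.5, 39.2 and 40.0 FPKM in BM, 188, 198 and 161 FPKM in PB and 664, 681 and 680 FPKM in lung. The 3 tissues did not overlap, and both steps were called, with 2.18 ± 0.08 from BM to PB (adjusted p = 1.30e-07) and 1.89 ± 0.08 from PB to lung (adjusted p = 2.29e-07). The caspases showed different patterns. *Casp4* was at 27.7, 27.1 and 27.8 FPKM in BM, 79.4, 76.1 and 67.6 FPKM in PB and 122, 122 and 123 FPKM in lung, and its lung-over-PB value was 0.71 ± 0.07 (adjusted p = 1.98e-05), or 1.35 after rescaling. *Casp1* was at 34.3, 33.0 and 33.5 FPKM in BM, 40.5, 41.4 and 30.1 FPKM in PB and 23.0, 23.5 and 19.5 FPKM in lung. Its lung-over-PB value was -0.73 ± 0.13 (adjusted p = 0.000816), and rescaling left -0.11 (adjusted p = 0.466). On deposited FPKM neither caspase was called between lung and PB, and the difference between them was not tested.

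Against BM, 8 of the 10 members were called higher in lung neutrophils (background 9.86% of 8236 genes). The log2 fold changes ran from 5.86 for *Il1a* and 5.55 for *Il1b* through 4.08 for *Il1r2*, 4.07 for *Nlrp3*, 2.91 for *Il1rn* and 2.44 for *Il1rap* to 2.11 for *Casp4* and 1.83 for *Il18*. *Casp1* and *Il18rap*, at -0.59 and -0.13, were not called and turned positive after rescaling (0.23 and 0.71). Between PB and BM, 4 of 9 members tested were called higher in PB (background 7.85% of 8237 genes), namely *Il1b*, *Il1rap*, *Nlrp3* and *Casp4*. *Il18* at 0.88, *Il1r2* at 0.85 and *Il1rn* at 0.67 passed the adjusted p alone, and *Casp1* at 0.13 (95% interval -0.13 to 0.40) and *Il18rap* at 0.01 (-0.10 to 0.12) did not. *Il1a* was below the filter in both tissues. Summed markers of immature neutrophils were 34275 to 35420 FPKM in BM, 524 to 745 FPKM in PB and 568 to 590 FPKM in lung, so these markers move with each comparison against BM, and their part in these differences was not tested. For *Il1b*, *Il1rap* and *Casp4* the larger of both values was that from BM to PB, for *Il1r2* and *Il1rn* that from PB to lung, and *Nlrp3* passed both thresholds at each step. As a share of summed FPKM the members together made up 0.101% to 0.106% in BM, 0.766% to 0.896% in PB and 2.36% to 2.37% in lung, of which *Il1b* was the largest part.

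**Figure D2:**
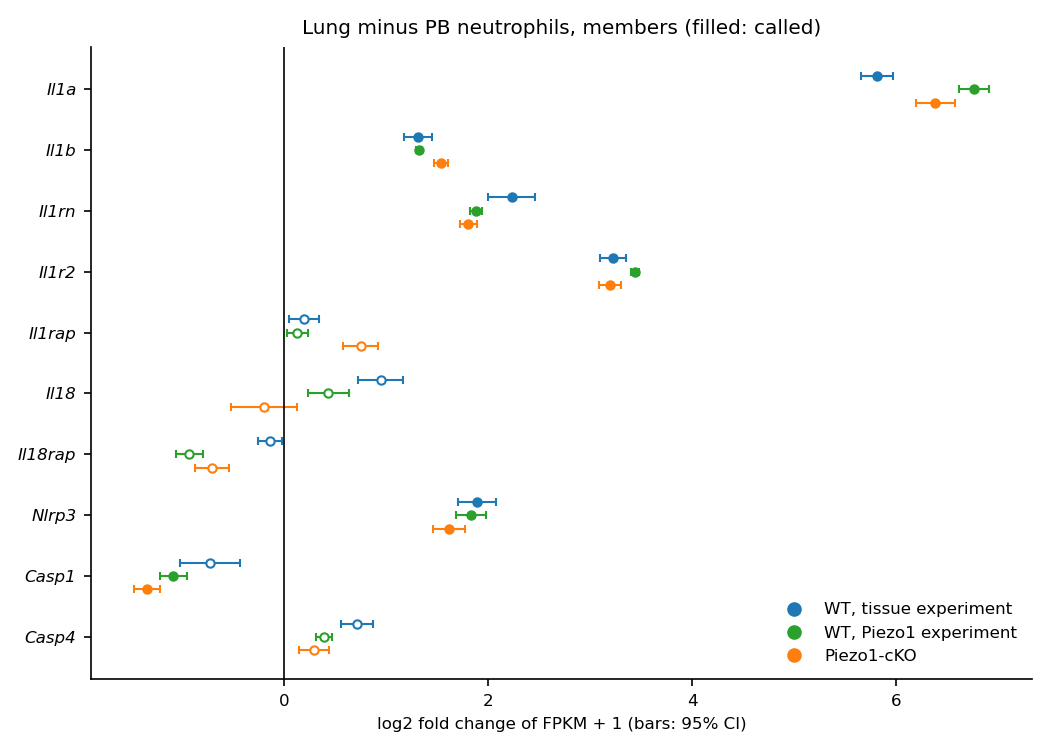
Log2 fold change of lung over PB neutrophils for each of the 10 members on the x axis, in WT mice of the tissue comparison (n = 3 per group) and in WT and *Piezo1*-cKO mice of the Piezo1 experiment (n = 2 per group); points are estimates and bars 95% intervals of limma-trend. *Il1a*, *Il1r2*, *Il1rn*, *Nlrp3* and *Il1b* lie above 1 in all 3 comparisons, and *Casp1* lies below 0 in all 3.

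The genes with patterns closest to 3 of the members over the 9 libraries were taken from 8414 genes by the smallest root mean square difference of centered log2(FPKM + 1). For *Il1b* they were *Plk2*, *Atf3* and *Csrnp1*, at 0.29, 0.39 and 0.44. For *Il1rn* they were *Plek*, *Tfip11* and *Usp38*, at 0.09, 0.10 and 0.10, and for *Il1r2* they were *Slc7a11*, *Nfkb2* and *Coq10b*, at 0.08, 0.09 and 0.12. *Nfkb2*, a subunit of NF-κB, averaged 14.2 FPKM in BM, 26.1 FPKM in PB and 231 FPKM in lung. *Plk2*, the closest to *Il1b*, averaged 2.86 FPKM in BM, 44.9 FPKM in PB and 168 FPKM in lung. The values describe likeness over these libraries, which share tissue and handling.

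A further 36 genes of the IL-1, IL-18 and inflammasome pathways were listed, and 24 passed the filter in lung and PB. Of these, 5 were called higher and 5 lower in lung than in PB, where 7.75% and 19.5% of all genes were, so the share of the list called lower was about that of all genes. After rescaling 5 were called higher and 1, *Gsdme*, lower, where 932 and 448 of 7577 genes were. The list had a median log2 fold change of -0.40 against -0.54 over all genes. Among the *Irak* genes, which act downstream of the receptor, *Irak2* and *Irak3* were called higher and *Irak4* lower on deposited FPKM. *Irak2*, which sustains signaling after the first kinase has acted, rose from 26.9 ± 2.55 FPKM (SD, n = 3) in PB to 193 ± 3.23 FPKM in lung (log2 fold change 2.80). The inhibitory *Irak3* rose from 21.6 ± 0.733 to 48.3 ± 1.95 FPKM (1.13). *Irak4*, the kinase that acts first, fell from 55.7 ± 0.926 to 17.5 ± 0.449 FPKM (-1.62), and the adaptor *Myd88* from 297 ± 3.87 to 143 ± 2.91 FPKM (-1.05). After rescaling, *Irak4* was at -0.998 and *Myd88* at -0.41, both short of the size threshold.

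Among the sensors and executioners, *Mefv*, which encodes the inflammasome sensor pyrin, rose from 70.4 ± 7.63 to 161 ± 1.53 FPKM (1.19). *Ninj1*, which mediates membrane rupture, rose from 183 ± 20.3 to 510 ± 8.0 FPKM (1.48). *Gsdme*, a gasdermin, fell from 47.4 ± 1.0 to 10.6 ± 0.649 FPKM (-2.07), and remained called after rescaling at -1.46. *Naip2*, a receptor for bacterial secretion-system proteins, fell from 15.4 ± 0.528 to 5.64 ± 0.256 FPKM (-1.30), and *Txnip*, which can bind NLRP3, from 1125 ± 29.3 to 376 ± 1.22 FPKM (-1.58), both short of the threshold after rescaling (-0.73 and -0.94). The fifth gene called higher was *Nlrc4*, at a mean of 1.71 FPKM in lung and 0.0111 FPKM in PB. *Gsdmd*, which forms the pore downstream of CASP1 and CASP4, was at 90.1 ± 18.5 FPKM in PB and 67.1 ± 1.45 FPKM in lung and was not called (-0.40, 0.24 after rescaling).

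**Figure D3:**
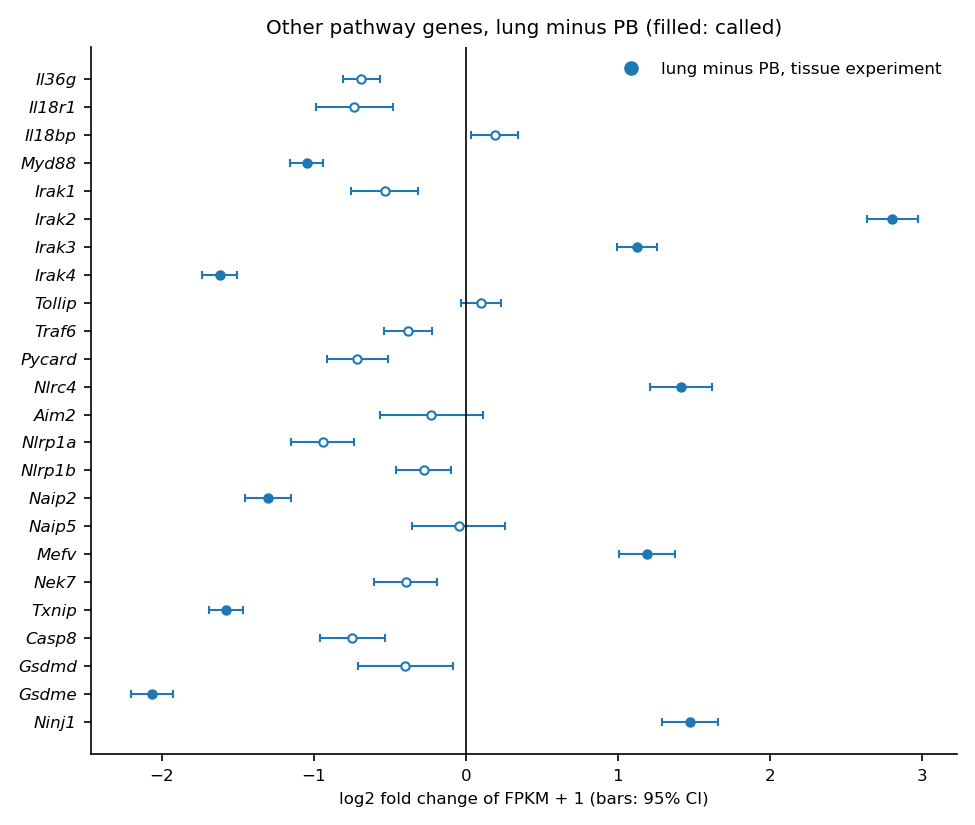
Log2 fold change of lung over PB neutrophils (x axis) for the pathway genes that passed the filter in WT mice of the tissue comparison, with 95% intervals of limma-trend (n = 3 per group). *Irak2*, *Ninj1*, *Nlrc4*, *Mefv* and *Irak3* lie above 1 and *Gsdme*, *Irak4*, *Txnip*, *Naip2* and *Myd88* below -1.

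The Piezo1 experiment contained a separate set of lung and PB neutrophils. In its WT mice, 5 members were called higher in lung than in PB (background 7.50% of 7143 genes) and 1 lower (background 26.5%), and in *Piezo1*-cKO mice again 5 higher (background 7.93% of 7163 genes) and 1 lower (background 23.0%). In each genotype the members higher were *Il1a*, *Il1r2*, *Il1rn*, *Nlrp3* and *Il1b*. In WT mice *Il1a* was at 0.107 and 0.0940 FPKM in PB (12 reads) and 117 and 121 FPKM in lung (15109 reads). In *Piezo1*-cKO mice it was at 0.465 and 0.316 FPKM in PB (38 reads) and 114 and 116 FPKM in lung (14179 reads). Lung stood far above PB in both genotypes, at 1186 times (95% interval 679 to 2296) the depth-scaled reads of PB in WT and 306 times (223 to 433) in *Piezo1*-cKO mice. *Il1r2* showed log2 fold changes of 3.44 ± 0.02 in WT and 3.20 ± 0.04 in *Piezo1*-cKO mice, *Il1rn* of 1.88 ± 0.03 and 1.81 ± 0.04, *Nlrp3* of 1.83 ± 0.06 and 1.62 ± 0.06 and *Il1b* of 1.32 ± 0.01 and 1.54 ± 0.03.

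*Casp1* was the member called lower in lung in both genotypes. It was at 69.5 and 66.9 FPKM in WT PB, 83.7 and 80.4 FPKM in *Piezo1*-cKO PB, 30.0 and 33.2 FPKM in WT lung and 32.4 and 30.9 FPKM in *Piezo1*-cKO lung. The log2 fold changes were -1.09 ± 0.06 (adjusted p = 1.37e-06) and -1.35 ± 0.05 (adjusted p = 1.98e-06), and after rescaling -0.36 and -0.71, which were no longer called. Rescaling brought *Il18* (0.43 to 1.01) and *Casp4* (0.39 to 1.12) past the size threshold in WT mice and *Il1rap* (0.75 to 1.38) in *Piezo1*-cKO mice. *Il18rap* was lower in lung than in PB, by -0.93 ± 0.06 and -0.71 ± 0.07, and was short of the threshold. After rescaling it was at -0.22 and -0.08. *Il18* did not pass the test in *Piezo1*-cKO mice (-0.20 ± 0.13, adjusted p = 0.212), where it was 4.47 and 4.21 FPKM in PB and 4.30 and 3.10 FPKM in lung. Its direction there turned to 0.32 after rescaling. Of the pathway list, 8 of 21 genes tested were called in WT mice (1 higher, 7 lower) and 8 of 22 in *Piezo1*-cKO mice (1 higher, 7 lower), near the 34.0% and 30.9% of all genes called. The gene called higher was *Irak2* in both. After rescaling 5 were called higher and 1 lower in WT mice, where 940 and 632 of 7143 genes were. In *Piezo1*-cKO mice 4 were called higher and 3 lower, where 976 and 550 of 7163 genes were.

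**Figure D4:**
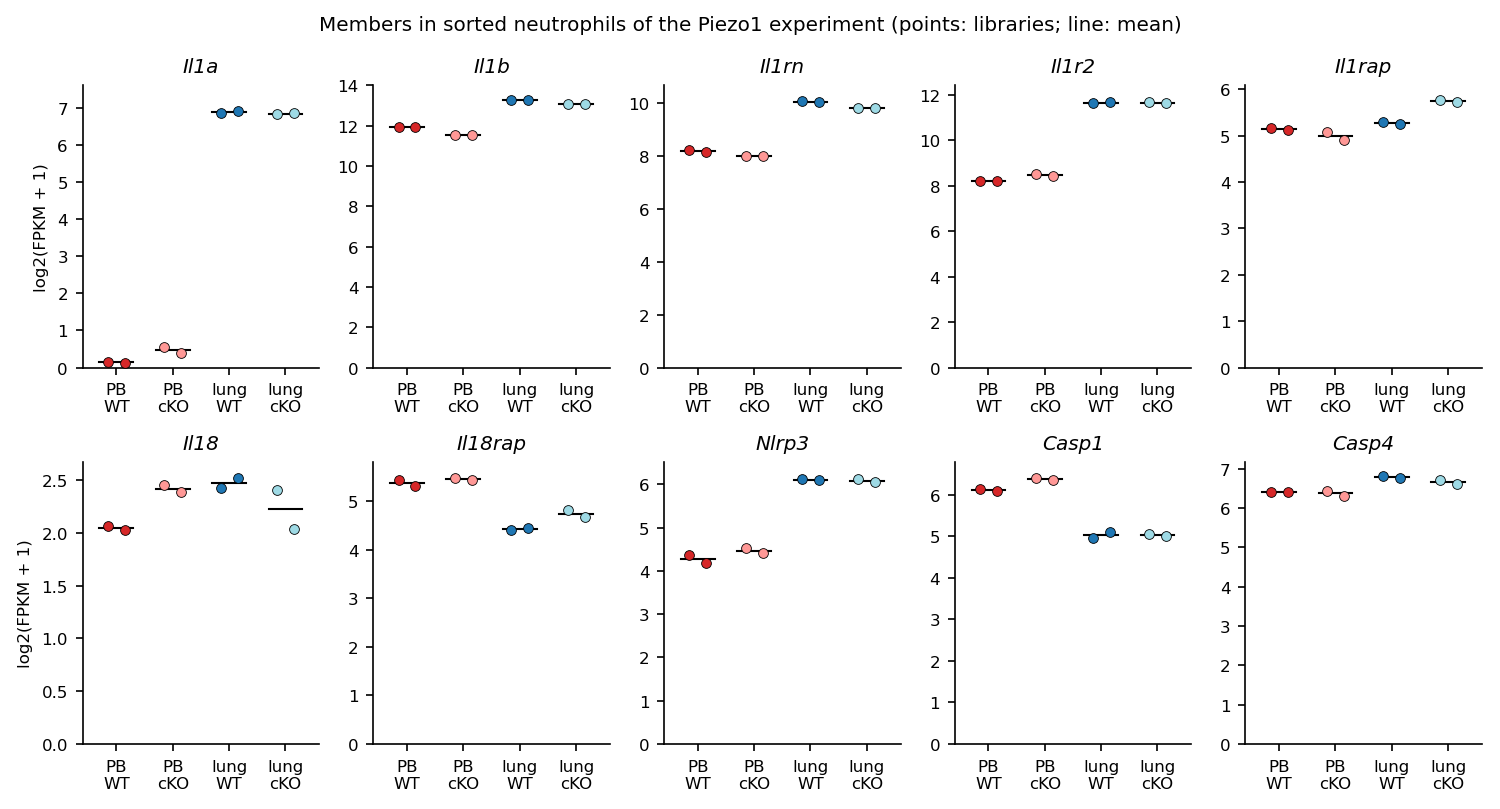
Level of each of the 10 members in neutrophils of the Piezo1 experiment, grouped by tissue (PB, lung) and genotype (WT, *Piezo1*-cKO), as log2(FPKM + 1) on the y axis; each point is 1 library (n = 2 per group) and each line the mean. *Il1a*, *Il1b*, *Il1rn*, *Il1r2* and *Nlrp3* lie higher in the lung than in the PB libraries of both genotypes, and the genotypes lie close together within a tissue.

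The genotype comparison asks whether the system depends on *Piezo1* in hematopoietic cells. In lung neutrophils, 0 of 10 members were called between WT and *Piezo1*-cKO mice under limma-trend, where 0.995% of 6434 genes were called. By adjusted p alone 3 members were higher in WT (background 15.8%) and 2 lower (background 35.0%). An unadjusted p under 0.05 was found for 5 of the 10 members and for 3691 of the 6434 genes. edgeR and DESeq2 also called 0 members. *Il1b* was at 9764 and 9776 FPKM in WT and 8691 and 8619 FPKM in *Piezo1*-cKO lung, a difference of 0.17 ± 0.01 (adjusted p = 0.000109). *Il1rn* was at 1082 and 1063 FPKM in WT and 901 and 895 FPKM in *Piezo1*-cKO lung, a difference of 0.26 ± 0.02 (adjusted p = 0.000128). Both genes were slightly lower in the *Piezo1*-cKO libraries, without overlap. The share of all genes that did not overlap was not counted, here or between tissues. *Il1a*, which did not pass the test (adjusted p = 0.286, limma-trend), did not overlap either. *Casp4* was at 111 and 107 FPKM in WT and 103 and 96.6 FPKM in *Piezo1*-cKO lung (0.13 ± 0.04, adjusted p = 0.0384).

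The accessory chains differed in the reverse direction. *Il1rap* was at 38.4 and 37.1 FPKM in WT and 53.1 and 52.2 FPKM in *Piezo1*-cKO lung, so WT was lower by -0.47 ± 0.04 (adjusted p = 0.000229). *Il18rap* was at 20.3 and 20.9 FPKM in WT and 27.2 and 24.4 FPKM in *Piezo1*-cKO lung (-0.31 ± 0.06, adjusted p = 0.00667). Both were thus higher in the *Piezo1*-cKO libraries. The 95% intervals of the members that did not pass were -0.03 to 0.12 for *Il1a*, -0.06 to 0.12 for *Nlrp3*, -0.04 to 0.03 for *Il1r2*, -0.14 to 0.14 for *Casp1* and -0.05 to 0.56 for *Il18*. Rescaling brought *Il1a* to 0.16 (adjusted p = 0.00725), *Nlrp3* to 0.14 (adjusted p = 0.0197) and *Il1r2* to 0.11 (adjusted p = 0.00136), while *Casp1* at 0.10 (adjusted p = 0.176) did not pass. It also raised *Il1b* to 0.29 and *Casp4* to 0.24, and left *Il1rap* at -0.36 beside *Il1rn* at 0.37. Summed markers of immature neutrophils were 888 to 905 FPKM in WT and 1164 to 1166 FPKM in *Piezo1*-cKO lung, and their part in these differences was not tested.

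**Figure D5:**
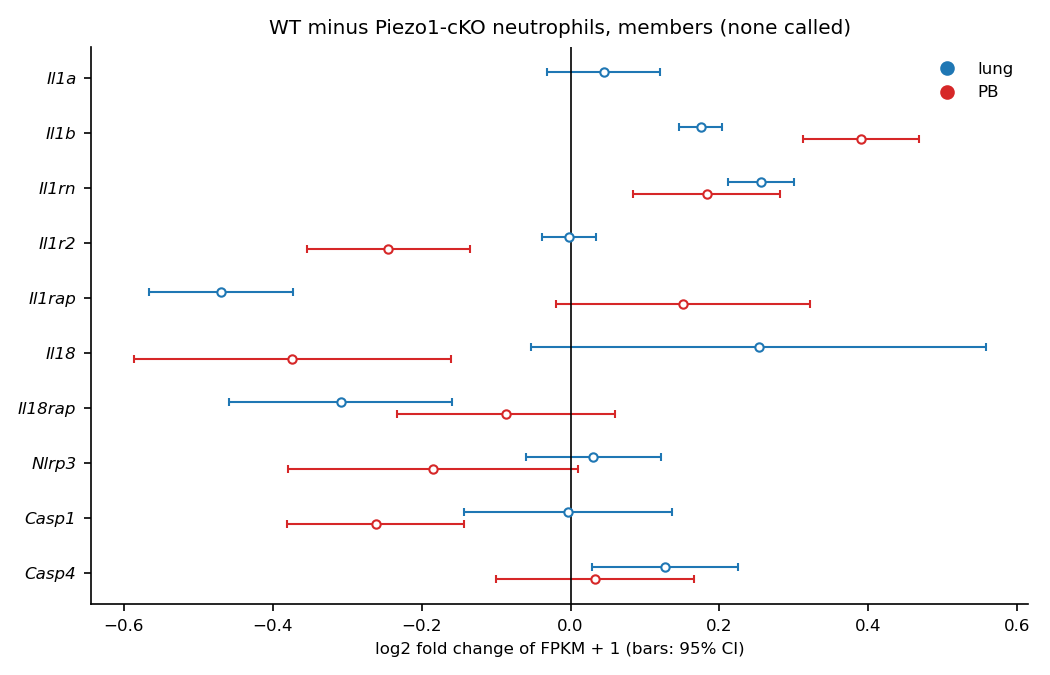
Log2 fold change of WT over *Piezo1*-cKO neutrophils (x axis) for each member in lung and in PB, with 95% intervals of limma-trend (n = 2 per group); *Il1a* is absent in PB, where it was below the filter. All members lie within 1 of 0, *Il1b* and *Il1rn* lie to the right in both tissues, and the interval of *Il1rap* lies below 0 in lung and spans 0 in PB.

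In PB neutrophils, 0 of 9 members tested were called under limma-trend (3.65% of 7256 genes were). An unadjusted p under 0.05 was found for 5 of the 9 members and for 4131 of the 7256 genes. edgeR and DESeq2 called 0 as well. By adjusted p alone 2 members were higher in WT (background 23.2%) and 3 lower (background 26.5%). *Il1b* was at 3934 and 3889 FPKM in WT and 3000 and 2969 FPKM in *Piezo1*-cKO PB (0.39 ± 0.03, adjusted p = 0.000391). *Il1rn* was at 297 and 285 FPKM against 257 and 255 FPKM (0.18 ± 0.04, adjusted p = 0.0106). In the reverse direction, *Il1r2* was at 297 and 300 FPKM in WT and 366 and 341 FPKM in *Piezo1*-cKO PB (-0.25 ± 0.05, adjusted p = 0.00501), *Casp1* differed by -0.26 ± 0.05 (adjusted p = 0.00536) and *Il18* by -0.37 ± 0.09 (adjusted p = 0.0128). These counts are about the share of all genes that passed the same test. The *Piezo1*-cKO PB libraries also held 564 to 572 FPKM of summed erythroid markers, led by *Hba-a1*, against 11.05 to 11.7 FPKM in WT, and 2799 to 2932 FPKM of immature neutrophil markers against 1758 to 1787 FPKM. The part of either in the differences was not tested.

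The interaction of genotype and tissue, which is the WT minus *Piezo1*-cKO difference in lung less that in PB, was called on the adjusted p alone. It passed for 6 of 10 members and for 48.2% of all genes, with a positive value in 4 members (background 18.5% of 7560 genes) and a negative value in 2 (background 29.7%). With rescaled FPKM 9 members passed, 7 of them with a positive value, since *Il1rn* (0.18), *Nlrp3* (0.32) and *Casp4* (0.21) were added. On that scale 3642 of the 7560 genes passed, 1869 with a positive and 1773 with a negative value. edgeR also gave 9 members and DESeq2 8, where 3954 and 3089 of all genes passed. *Il1b* was at -0.22 ± 0.03 (adjusted p = 0.000376), since it was lower in *Piezo1*-cKO mice in both tissues and by more in PB. With rescaled FPKM its value was -0.10. *Il1rap* was at -0.62 ± 0.09 (adjusted p = 0.000653), with a genotype difference of 0.15 ± 0.07 in PB that did not pass the test (adjusted p = 0.121). *Il1r2* was at 0.24 ± 0.05, *Il18* at 0.63 ± 0.17, *Il1a* at 0.38 ± 0.10 and *Casp1* at 0.26 ± 0.08. The interaction of *Il1a* was 1.32 with a pseudocount of 0.1, 2.01 in edgeR and 2.07 in DESeq2. Of 22 pathway genes tested, 11 passed, 5 with a positive and 6 with a negative value. Under limma-trend no pathway gene was called between the genotypes within lung or within PB. edgeR and DESeq2 each called 1 of 22 in lung, higher in WT, and 1 of 21 in PB, lower in WT. Over all genes edgeR called 345 of 6434 in lung and 735 of 7256 in PB, and DESeq2 311 and 689.

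In whole lung, 0 of 9 members tested were called between depleted and control mice under limma-trend. Over all 13990 genes 0.00715% were called, while 1570 had an unadjusted p under 0.05. Among the members, *Il1b* and *Il18rap* had an unadjusted p under 0.05, and rescaled FPKM, the setting closest to another normalization here, also called 0 members. *Il1b* was at 8.54, 9.56 and 7.18 FPKM in control and 2.10, 2.37 and 0.928 FPKM in depleted lungs. All depleted lungs lay below all control lungs, with a log2 fold change of -1.79 ± 0.22 (95% interval -2.30 to -1.27), yet the adjusted p was 0.0762. *Il18rap* was at 2.37, 1.94 and 2.46 FPKM in control and 1.63, 1.69 and 0.968 FPKM in depleted lungs, also without overlap (-0.43 ± 0.15, adjusted p = 0.353). *Il1r2* was below the filter and did not overlap either, at 0.393, 0.496 and 0.506 FPKM in control and 0.287, 0.360 and 0.117 FPKM in depleted lungs.

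*Il1a* was at 2.09, 1.52 and 1.55 FPKM in control and 1.20, 1.51 and 1.25 FPKM in depleted lungs (-0.23 ± 0.12, adjusted p = 0.552). Its lowest control value, 1.517 FPKM, was just above its highest depleted value, 1.506 FPKM. The share of all genes that did not overlap between the groups was not counted, so the non-overlap of single members has no background. The remaining members overlapped between the groups. *Il1rn* was at 2.86, 3.11 and 1.97 FPKM in control and 1.12, 3.76 and 2.19 FPKM in depleted lungs, and *Il18*, the most abundant member in whole lung, at 13.8, 17.5 and 19.7 FPKM and 13.3, 18.2 and 13.1 FPKM. Their 95% intervals were -0.86 to 0.49 and -0.57 to 0.20. *Il18* thus ranked first in whole lung and among the lowest members in sorted neutrophils, whereas *Il1b* ranked first in sorted neutrophils. As a check of the depletion, summed neutrophil markers were 205 to 260 FPKM in control and 43.0 to 122 FPKM in depleted lungs, without overlap. *Ly6g* itself was at 0.577 FPKM or less in all 6 lungs, below the filter. B cell markers were also lower in depleted lungs (80.4 to 85.6 against 31.4 to 67.4 FPKM), macrophage and monocyte markers overlapped (165 to 170 and 162 to 179 FPKM), and the part of either in the *Il1b* values was not tested.

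Levels of some members differed between the 2 experiments on sorted neutrophils, which were normalized separately and are given side by side without a test. *Nlrp3* averaged 675 FPKM in WT lung and 182 FPKM in WT PB of the tissue comparison, and 68.1 and 18.4 FPKM in the Piezo1 experiment. Of 7177 genes compared in lung, 107 had a larger absolute log2 difference between the experiments than *Nlrp3*, and 139 of 7931 in PB. *Il18rap* averaged 105 FPKM in lung and 116 FPKM in PB of the tissue comparison against 20.6 and 40.3 FPKM, and *Il1r2* was higher in the Piezo1 experiment, with 3243 against 1044 FPKM in lung. *Il1rap* was nearly equal, at 38.2 and 37.7 FPKM in lung. The lung-over-PB change of *Nlrp3*, at 1.89 and 1.83, was close in both experiments although its level was not. *Il1a*, *Il1b*, *Il1r2*, *Il1rap* and *Il18* overlap annotated transcripts on the opposite strand, and since use of strand in counting is not stated, reads of those transcripts cannot be told apart from theirs.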

How the data were processed

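Bulk polyA RNA-Seq of 23 mouse libraries in 3 experiments was used. The deposited FPKM per gene were made by the authors, who trimmed reads with fastp, aligned them to mm10 with HISAT2 and counted them with HTSeq. Versions are not given in the sources used here. For the Piezo1 experiment the authors also deposited, per group, a signal that averages counts divided by size factors. It served here only to check the recovered reads. The median relative difference over genes was 7.97e-11 to 8.78e-11 per group, and the largest was 0.75 to 0.857. The 5 columns per Piezo1 table that hold the authors' own comparison (overall mean, fold change, log2 fold change, p-value and q-value) were not used. For sorted neutrophils, FPKM were turned back into reads, and 100.0% of values came out whole within 0.05 reads. Intervals on reads cover counting error only, since no molecular identifiers were used.

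Groups follow the deposited labels, and a fit held only the libraries compared. The main test was limma-trend, with the trend and robust options of eBayes, in limma 3.58.1 under R 4.3.3. It ran on log2(FPKM + 1). Genes were tested where 3 libraries reached an FPKM of 1 (2 libraries in the Piezo1 experiment), and p-values were adjusted over all of them by the Benjamini-Hochberg method. The fits were tested on simulated data. The settings varied were the pseudocount (0.1), the filter (none), the scaling of FPKM (median ratio of 1), the test (edgeR 4.0.16 or DESeq2 1.42.0 on recovered reads), the replicate number as a block, 1 fit over all libraries of an experiment, the adjusted p alone, and each library left out. Read ratios were computed in Python 3.11.15 with scipy 1.17.1. The members, the pathway list and the marker lists were chosen with earlier results of these data known. Besides the members, *Piezo1* and *Ly6g*, the rule named pathway genes called in lung against PB, in WT against *Piezo1*-cKO lung or in whole lung, with a mean of at least 5 FPKM in the higher group, and the 3 genes nearest in pattern to *Il1b*, *Il1rn* and *Il1r2*. *Nlrc4*, *Gsdmd*, *Il36g* and *Pycard* were named after their values were seen. For 5 pathway genes the tables list an older symbol. Positions are from GENCODE on GRCm38, and promoters from the RefSeq table on GRCm38.p6.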

Additional observations from a re-analysis of the deposited data

Results flagged for a closer look

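For 6 members the difference between WT and *Piezo1*-cKO neutrophils differed between lung and PB, by the interaction term of limma-trend with Benjamini-Hochberg adjustment (n = 2 per group), a test that 48.2% of all genes passed. The differences are log2 values of WT minus *Piezo1*-cKO in lung, less the same in PB. *Il1rap* was at -0.62 (adjusted p = 0.000653), being higher in *Piezo1*-cKO than WT lung, while the PB difference of 0.15 did not pass the test (adjusted p = 0.121). *Il1b* was at -0.22 (adjusted p = 0.000376), being lower in *Piezo1*-cKO mice in both tissues, with a smaller difference in lung. Its interaction was -0.10 with rescaled FPKM (adjusted p = 0.0107), -0.13 in edgeR (adjusted p = 0.000804) and -0.10 in DESeq2 (adjusted p = 0.0458). *Il1r2* was at 0.24 (adjusted p = 0.00330), since *Piezo1*-cKO exceeded WT in PB and overlapped it in lung. *Il18* was at 0.63 (adjusted p = 0.0143), at levels of 3.07 to 4.74 FPKM. *Il1a* was at 0.38 (adjusted p = 0.0121), where the PB arm rested on 12 reads in WT and 38 reads in *Piezo1*-cKO mice, and it was at adjusted p = 0.0503 without WT lung library 2. *Casp1* was at 0.26 (adjusted p = 0.0266), and it lost the threshold without the filter on low values (adjusted p = 0.0591) and without PB WT library 2, PB *Piezo1*-cKO library 1, lung WT library 2 or lung *Piezo1*-cKO library 2 (adjusted p from 0.0631 to 0.0902).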

How the results depend on the processing

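2 to 3 libraries per group, and a whole-lung table without read counts, limit what these comparisons can show. Leaving out 1 library at a time gave 4 to 5 members called in lung against PB (4 without lung library 1, 2 or 3, when *Il1a* fell below the filter), 7 to 8 in lung against BM, 4 in PB against BM, 0 in both genotype comparisons and in whole lung, 5 to 6 in lung against PB of WT and of *Piezo1*-cKO mice, and 4 to 7 for the interaction.

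By adjusted p alone, 10 members passed in lung against PB, 7 in PB against BM, 5 in each genotype comparison and 10 in lung against PB of the Piezo1 WT mice, and 0 had an interaction above 1, although *Il1a* was at 1.32 with a pseudocount of 0.1, 2.01 in edgeR and 2.07 in DESeq2. Rescaled FPKM, edgeR and DESeq2 turned *Il18rap* in lung against PB to 0.50, 0.48 and 0.50 and against BM to 0.71, 0.67 and 0.72, *Casp1* in lung against BM to 0.23, 0.19 and 0.24, *Il18* in *Piezo1*-cKO lung against PB to 0.32, 0.40 and 0.42, and, between genotypes in lung, *Il1r2* to 0.11, 0.11 and 0.11 and *Casp1* to 0.10, 0.11 and 0.11. The cause was not tested. They also brought *Il18* and *Casp4* past the size threshold in lung against PB. With a library left out, values near 0 changed sign: *Il18rap* in PB against BM (-0.013 to 0.024), between genotypes in lung *Il1r2* (-0.011 to 0.0067), *Nlrp3* (-0.0031 to 0.064) and *Casp1* (-0.073 to 0.066), *Casp4* between genotypes in PB (-0.031 to 0.096), and *Il1rn* (-0.47 to 0.11) and *Casp4* (-0.13 to 0.0097) in whole lung. *Il1b* in whole lung had adjusted p from 0.0511 to 0.275 over its alternatives.

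Over all genes, rescaling changed the split of calls from 587 higher and 1476 lower to 932 and 448 in lung against PB, from 812 and 2965 to 1587 and 1158 in lung against BM, from 536 and 1893 to 940 and 632 in WT and from 568 and 1644 to 976 and 550 in *Piezo1*-cKO mice of the Piezo1 experiment. For the interaction it went from 1402 and 2245 to 1869 and 1773. Against 64 genes called between genotypes in lung and 265 in PB, a pseudocount of 0.1 gave 332 and 672, edgeR 345 and 735 and DESeq2 311 and 689. The adjusted p alone gave 6479, 7628, 6023, 3265, 3607, 6360 and 6054 genes in the order of the comparisons, against 2063, 3777, 1811, 64, 265, 2429 and 2212, and 518 interactions above 1 against 3647 in all, or 5509 without the filter. In whole lung 1 gene was called, 4 with a pseudocount of 0.1, 0 without the filter and 0 to 12 with a lung left out, and 174 genes were called between genotypes in PB without WT library 1. Deviations of same-numbered libraries from their group means correlated at -0.09 to 0.08. With so few libraries per group, this cannot settle whether same-numbered libraries came from the same animal. The replicate block gave 5 genes in whole lung and changed 1 call among the members, *Nlrp3* in the interaction (0.21, adjusted p = 0.0424). edgeR and DESeq2 were not run for whole lung, nor 1 fit over all libraries for the interaction and whole lung.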

Other observations

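*Il36g*, another cytokine of the IL-1 family, was more abundant in neutrophils than *Il18* and *Il1a*, at 267 ± 3.52 FPKM (SD, n = 3) in BM, 432 ± 17.1 FPKM in PB and 268 ± 4.25 FPKM in lung. In the Piezo1 experiment it averaged 1243 FPKM in WT PB and 510 FPKM in WT lung, and was called lower in lung by -1.28 in WT and -1.35 in *Piezo1*-cKO mice. After rescaling these values were -0.54 and -0.70, no longer called, and in the tissue comparison the lung-over-PB value of -0.69 became -0.05. It was chosen after its values were seen.

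*Pycard*, which encodes the adaptor ASC that joins sensor to caspase, was a low gene in mature neutrophils. It averaged 11.7 ± 0.301 FPKM in BM, 1.90 ± 0.232 FPKM in PB and 0.765 ± 0.0277 FPKM in lung, the reverse of the order of *Nlrp3*. In lung of the Piezo1 experiment it was at 1.98 and 1.74 FPKM in WT and 0.827 and 0.558 FPKM in *Piezo1*-cKO mice. On log2(FPKM + 1) the difference was 0.76 (adjusted p = 0.00159, limma-trend), under the size threshold. That scale understates the change of genes this near 0, so the size threshold does not settle how large the change was. The interaction of genotype and tissue for *Pycard* was 0.96 (adjusted p = 0.00151, limma-trend). *Pycard* too was chosen after its values were seen.

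In PB of the Piezo1 experiment, *Il1a* was below the filter and had 38 reads in *Piezo1*-cKO and 12 reads in WT libraries, a ratio of depth-scaled reads of 3.75 (95% interval 1.92 to 7.89, for counting error only). The ratio of *Il1rn* to *Il1b* was 0.0744 in WT and 0.0858 in *Piezo1*-cKO PB, and 0.110 and 0.104 in lung. In whole lung, the same ratio was 0.311 ± 0.0325 (SD, n = 3) in control and 1.49 ± 0.915 in depleted mice, with 0.535 as the lowest depleted and 0.335 as the highest control value.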
